A study of Mus musculus with 7 samples.

Results

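The genes described here are 29 genes of DNA replication and its start in S phase, the part of the cell cycle in which the genome is copied. They were chosen by name from the 48526 genes of a bulk RNA sequencing table of the mouse cardiac region at embryonic day 8.5, and all 29 were found by symbol. Of these, 11 license origins or form the replicative helicase, 5 act in priming, synthesis and the replication fork, 3 supply nucleotides, 4 act in repair and the checkpoint, 3 in chromatin and histone supply, and 3 regulate the passage from G1 to S phase. The region was dissected from 3 mutant embryos, Hoxb1 Cre/+ with Nodal flox/nul, and 4 control embryos, Hoxb1 +/+ with Nodal flox/+, all of mixed genetic background. The mutants thus carried the Cre recombinase at the Hoxb1 locus, 1 conditional and 1 null allele of Nodal, the secreted signal of left identity. The controls carried 1 conditional and 1 intact Nodal allele and no Cre, so every embryo held 1 conditional allele, and the loss of Nodal, the presence of Cre and the altered Hoxb1 allele cannot be told apart. Cre from the Hoxb1 locus acts only in cells that express Hoxb1 and their descendants, such as posterior heart precursors, whereas the RNA came from the whole dissected region. Mutant 1 and controls 2 and 4 were male and marked E8.5f in the table's header, and mutants 2 and 3 and controls 1 and 3 were female and marked E8.5e.

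Before S phase the origin recognition complex, Cdc6 and Cdt1 load the ring of Mcm2 to Mcm7 onto DNA, and Cdc45 and the GINS complex then turn the ring into an active helicase. Primase and DNA polymerase alpha start each strand, the clamp Pcna holds the synthesising polymerases, and ribonucleotide reductase and thymidylate synthase provide the building blocks. Many of these genes are targets of the E2F transcription factors, so their transcripts are commonly read as a measure of how many cells are cycling; the embryonic heart tube and the tissues beside it all hold dividing cells.

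The libraries held 7155994 to 15122057 reads recovered from the deposited normalised counts. Nodal had 0, 0 and 0 reads in mutants 1 to 3, against 9, 3, 6 and 0 in controls 1 to 4. A count of 0 over the reads of the mutants allows up to 0.0755 CPM (3 reads, counting error only), and control 4 had none either, so reads of Nodal cannot check each library. All 12 heart muscle markers examined were detected in every library, and Tnnt2, the cardiac troponin T gene, had normalised counts of 9833, 4989.8 and 5984 in mutants 1 to 3, against 8993, 9505, 3686 and 11533 in controls 1 to 4. Markers of the neural tube differed far more between embryos of 1 genotype than the replication genes did, and control 3 stood with mutants 2 and 3 in them; results are therefore also given without control 3.

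Each of the 29 replication genes had a mean log2(normalised count + 1) that was higher in mutants than in controls, and none passed the test singly. For Rrm2 that difference was near 0, and its plain mean was lower in mutants, at 4149 against 4163 in controls. With library totals or TMM (trimmed mean of M values) as scaling 28 of the 29 were above 0, Rrm2 being below, and with edgeR or DESeq2 27, Prim1 and Rrm2 being below. The summed normalised count of the 29 genes was 60321, 60714 and 62116 in mutants 1 to 3, against 54314, 53939, 61044 and 54225 in controls 1 to 4, so control 3 lay among the mutants. The median log2 fold change was 0.13, against 0.0058 over all 15599 genes tested, and the values ran from 0.0029 for Rrm2 to 0.24 for Fen1. A log2 fold change here is the difference of group means of log2(normalised count + 1), mutant minus control. All 29 genes were above 0, against 51.7% of all genes tested and 66.4% of the 3031 genes with a mean normalised count of at least 1000, a level that 19 of the 29 reached. All 29 passed the filter on low counts, with 53 or more reads in every library.

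By limma with Benjamini-Hochberg adjustment over all genes, 0 of the 29 were called at an adjusted p under 0.05, against 0.0128% of all genes (2 genes) in either direction and 0% (0 genes) in the upward direction. The adjusted p-values of the 29 ran from 0.967 to 0.998. At an unadjusted p under 0.05 stood 10 of the 29 genes, all higher in mutants, against 2.17% of all genes. Among genes with a mean normalised count of at least 1000 that share was 4.98%. The count of 10 was lower in most of the alternatives, as given under the dependence on the processing. EdgeR and DESeq2 on the recovered reads also called 0 of the 29, against 0.00641% (1 gene) and 0.0513% (8 genes) of all genes. Each put 8 of the 29 at an unadjusted p under 0.05 and higher in mutants, against 1.62% of all genes with edgeR and 1.37% with DESeq2. The ratio of mutant to control means in the authors' deposited table was above 1 for 28 of the 29 genes, with Rrm2 at 0.997 and Fen1 highest at 1.19. The authors' deposited table gives 9 of the 29 an unadjusted p under 0.05, against 1.24% of all its genes, and an adjusted p of 1 for each of the 29. Of its 48526 genes 19544 had no read in any library, which lowers that share below the one among expressed genes such as the 29. None of the 29 is in the authors' deposited table of selected genes, whose smallest ratio above 1 is larger than the largest ratio of the 29, so their absence from it says nothing of their p-values.

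In 9 of the 29 genes every mutant lay above every control: Cdc6, Cdt1, Mcm5, Gins1, Pcna, Rpa2, Exo1, Uhrf1 and Ccne1. Over all genes tested this was 3.70%, and 7.79% among genes with a mean of at least 1000; every mutant lay below every control in 0 of the 29, against 2.08% of all genes. With TMM scaling in place of the deposited size factors the count was 6 of 29, against 2.79% of all genes. With library totals as scaling it was also 6, against 2.73% of all genes. Control 3 then reached the range of the mutants in Cdt1, Mcm5 and Uhrf1, so their separation holds for the deposited scaling only. The differences were small: the 95% intervals of 28 genes ended at or below 0.43 (Gins1) on the log2 scale, and that of Fen1, the gene with the fewest reads, at 0.62.

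**Figure D1:**
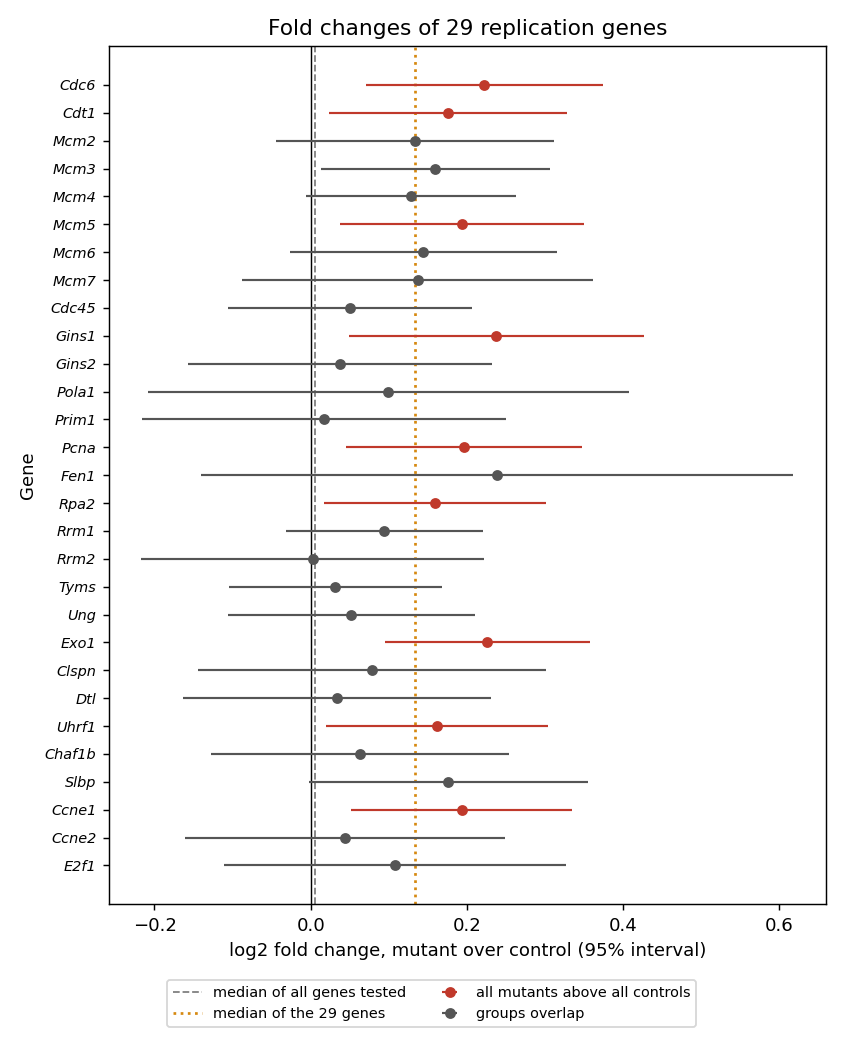
Log2 fold change (x axis, mutant over control, on log2(normalised count + 1)) of each of the 29 genes (rows, in blocks by role from licensing at the top to G1 to S regulators at the bottom), with 95% intervals from limma over 3 mutant and 4 control embryos. All points lie above 0, red marks the 9 genes in which every mutant lay above every control, and the dashed and dotted lines give the medians of all genes tested (0.0058) and of the 29 genes (0.13).

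The licensing factors and the helicase made up the largest group, in which 11 of 11 genes were above 0 (median 0.14). In 4 of them every mutant lay above every control, against 3.70% of all genes and 7.79% of those with a mean normalised count of at least 1000. Of 21 other licensing and helicase genes, with a median of 0.043, 0 had every mutant above every control. Cdc6 (ENSMUSG00000017499, chromosome 11, 98907801 to 98923940), the ATPase that helps to load the helicase, had normalised counts of 1358, 1387 and 1203 in mutants 1 to 3, against 1126, 1169.8, 1117 and 1091 in controls 1 to 4. All mutants lay above all controls, with mutant 3 closest to them. The log2 fold change of Cdc6 was 0.22 (SE 0.066), with a 95% interval from 0.071 to 0.37 and an adjusted p of 0.967 by limma. Cdt1 (ENSMUSG00000006585, chromosome 8, 122568015 to 122573554), the partner of Cdc6 in loading that is destroyed once S phase begins, had 1360.0, 1383 and 1418 in mutants 1 to 3, against 1218, 1195, 1352 and 1155 in controls 1 to 4. The gap between mutant 1 and control 3 was small, and the other controls lay well below. Its log2 fold change was 0.18 (SE 0.066), with a 95% interval from 0.024 to 0.33 and an adjusted p of 0.967 by limma.

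The 6 genes of the MCM ring all had fold changes above 0, none past the test. Their summed normalised count was 27064, 27046 and 28212 in mutants 1 to 3, against 23934, 23798, 27877 and 23579.6 in controls 1 to 4. Control 3 exceeded mutants 1 and 2 in this sum, while controls 1, 2 and 4 lay below every mutant. The single log2 fold changes were 0.13 for Mcm2, 0.16 for Mcm3, 0.13 for Mcm4, 0.19 for Mcm5, 0.14 for Mcm6 and 0.14 for Mcm7, with SE between 0.059 and 0.098. Mcm5 (ENSMUSG00000005410, chromosome 8, 75109569 to 75128439) was the 1 of the 6 whose groups did not overlap in the deposited scaling. It had 4640.3, 4499 and 4654 in mutants 1 to 3, against 3994, 3879.8, 4487 and 3756 in controls 1 to 4. The lowest mutant exceeded control 3 by only a few counts, and with library totals as scaling the groups overlapped. Mcm2 (ENSMUSG00000002870, chromosome 6, 88883474 to 88898780) had 4778, 4505 and 4796 in mutants 1 to 3, against 3965, 4162, 4888 and 4144 in controls 1 to 4. Control 3 was thus the highest of all 7 embryos. Mcm6 (ENSMUSG00000026355, chromosome 1, 128331590 to 128359664) again had control 3 highest, with 4194, 4258 and 4326 in mutants 1 to 3, against 3725, 3761, 4394 and 3581 in controls 1 to 4. Mcm7, whose introns host microRNAs, had 4818, 5023 and 5549 in mutants 1 to 3, against 4519, 4221, 5518 and 4468 in controls 1 to 4. Here mutant 3 and control 3 stood together above the other embryos.

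The cofactors that turn the ring into a moving helicase were less even. Gins1 (ENSMUSG00000027454, chromosome 2, 150905400 to 150931280), a GINS subunit, had 320.2, 362 and 359 in mutants 1 to 3, against 304, 295, 299.7 and 276 in controls 1 to 4. Every mutant lay above every control, and control 3 did not stand apart from controls 1 and 2. The log2 fold change of Gins1 was 0.24 (SE 0.082), with a 95% interval from 0.049 to 0.43 and an adjusted p of 0.967 by limma. Gins2, another GINS subunit, had 647, 614 and 728 in mutants 1 to 3, against 688, 639, 665 and 589 in controls 1 to 4, and its groups overlapped (log2 fold change 0.038, SE 0.085). In GENCODE M21, 67.3% of the exon bases of Gins2 are shared with Gse1 on the opposite strand, whose normalised counts were 882, 827 and 1006 in mutants 1 to 3, against 710.1, 981, 710.2 and 926 in controls 1 to 4. The library kit keeps strand, but whether strand was used in counting is not known here, and the value of Gins2 is uncertain. Cdc45, the third part of the active helicase, stood at 0.051 (SE 0.068), with 798 ± 53.4 (SD, n = 3) in mutants and 769.6 ± 30.2 (SD, n = 4) in controls.

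At the fork, the clamp and the single-strand binding protein stood higher in every mutant, and the primase-polymerase pair did not; the median log2 fold change of the 5 fork genes was 0.16. Pcna (ENSMUSG00000027342, chromosome 2, 132249162 to 132253314), the sliding clamp, had 3227, 3223 and 3133 in mutants 1 to 3, against 2819.6, 2649.5, 3078 and 2631 in controls 1 to 4. The 3 mutants lay close together and control 3 was the only control near them. For Pcna the log2 fold change was 0.20 (SE 0.066), with a 95% interval from 0.045 to 0.35 and an adjusted p of 0.967 by limma. Reads of Pcna can be shared with its processed pseudogene Pcna-ps2, which had 251, 274 and 254 in mutants 1 to 3, against 247, 206, 237 and 258 in controls 1 to 4, or 8.13% of the Pcna mean in mutants and 8.49% in controls. Rpa2, a subunit of the single-strand DNA binding complex, had 902, 882 and 832 in mutants 1 to 3, against 795, 767, 816 and 744 in controls 1 to 4 (log2 fold change 0.16, SE 0.062). The groups of Rpa2 did not overlap, although mutant 3 lay just above control 3.

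Pola1, the catalytic subunit of DNA polymerase alpha, had 738, 858 and 722 in mutants 1 to 3, against 696, 683, 913 and 615 in controls 1 to 4. Control 3 was the highest of all embryos and control 4 the lowest. Its log2 fold change was 0.10 (SE 0.13), with a 95% interval from -0.21 to 0.41 and an adjusted p of 0.967 by limma. Prim1, the small primase subunit, had 571, 639 and 626 in mutants 1 to 3, against 607, 599.6, 699 and 523 in controls 1 to 4. Controls 3 and 4 again lay at the 2 ends, and the log2 difference was 0.017 (SE 0.10), with a 95% interval from -0.22 to 0.25 and an adjusted p of 0.992 by limma. Fen1 (ENSMUSG00000024742, chromosome 19, 10199132 to 10204169), the nuclease that trims Okazaki fragments, had the largest fold change and the fewest reads of the 29: 95.7, 125 and 93.2 normalised counts in mutants 1 to 3, against 94.2, 98.1, 73.8 and 86.7 in controls 1 to 4. Mutant 2 alone stood apart, and mutants 1 and 3 lay within the range of the controls (log2 fold change 0.24, SE 0.16). GENCODE M21 assigns 84.2% of the exon bases of Fen1 also to opposite-strand genes, mainly the antisense transcript Gm10143, which had 7.81, 17.5 and 13.6 in mutants 1 to 3, against 13.8, 16.5, 21.2 and 22.9 in controls 1 to 4. The value of Fen1 is uncertain for the same reason as that of Gins2.

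**Figure D2:**
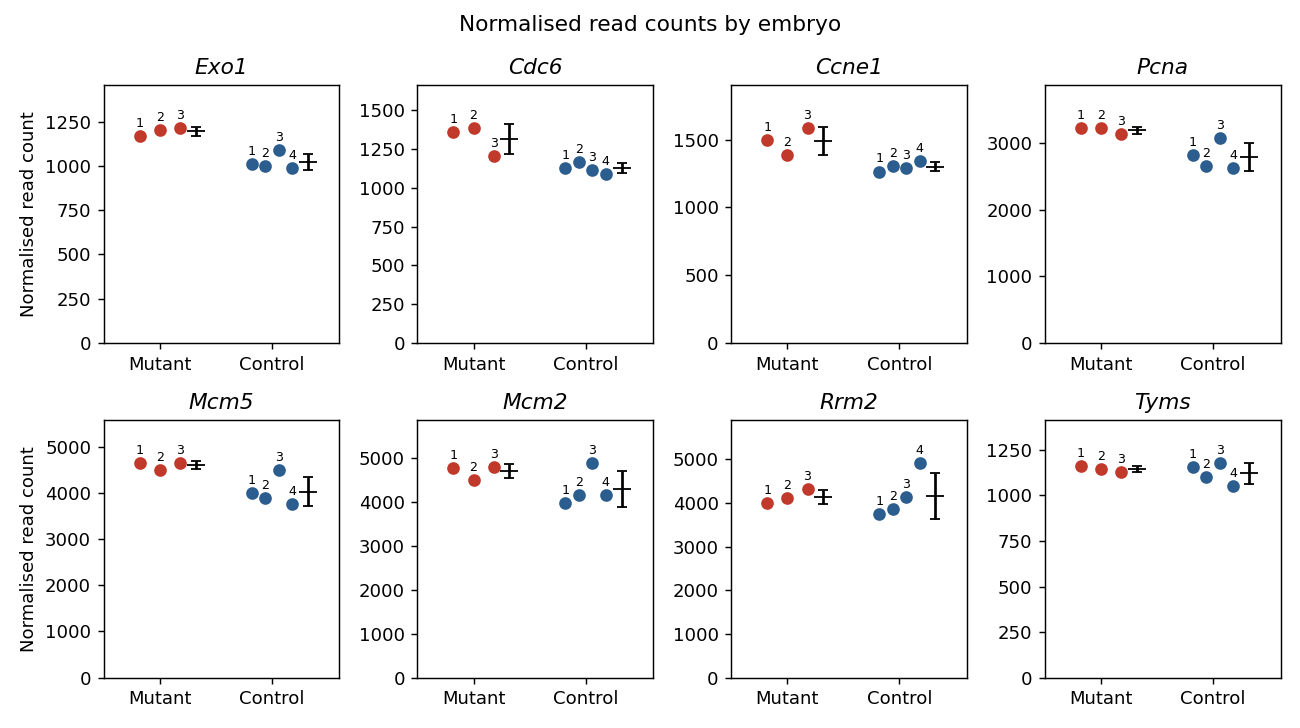
Normalised read counts (y axes, from 0) of 8 of the genes in each embryo, mutants in red and controls in blue, with the embryo number over each point and the mean ± SD beside the points (n = 3 mutants, n = 4 controls). Exo1, Cdc6, Ccne1, Pcna and Mcm5 have all mutants above all controls, control 3 overlaps the mutants in Mcm2, and the groups overlap in Rrm2, where control 4 is highest, and in Tyms.

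The 3 genes of nucleotide supply had the smallest median log2 fold change of the roles among the 29, 0.032. This did not extend to 16 other genes of nucleotide supply, whose median of 0.11 was the largest among the lists of other replication genes. All 3 overlapped between the groups, as did most genes: every mutant lay above every control in only 3.70% of all genes. Rrm1, the large subunit of ribonucleotide reductase, had 3373, 3429 and 3132 in mutants 1 to 3, against 3051, 3052, 3255 and 3043 in controls 1 to 4. Control 3 lay above mutant 3, and the log2 fold change of Rrm1 was 0.094 (SE 0.055), with a 95% interval from -0.032 to 0.22 and an adjusted p of 0.967 by limma. Rrm2 (ENSMUSG00000020649, chromosome 12, 24708241 to 24714146), the small subunit, whose level limits the enzyme outside S phase, had 4013, 4108 and 4326 in mutants 1 to 3, against 3739, 3853, 4132 and 4926 in controls 1 to 4. It was the 1 gene of the 29 with control 4 as the highest embryo, and its log2 fold change was 0.0029 (SE 0.095), with a 95% interval from -0.22 to 0.22 and an adjusted p of 0.998 by limma. The sign of Rrm2 turned with library totals or TMM as scaling and with edgeR or DESeq2, with values between -0.016 and -0.0033. Tyms, the thymidylate synthase gene, had 1159.8, 1145 and 1131 in mutants 1 to 3, against 1156, 1099, 1179.9 and 1050.2 in controls 1 to 4. All mutants lay within the range of the controls. Its log2 fold change of 0.032 had a 95% interval from -0.11 to 0.17.

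The 4 repair and checkpoint genes had a median log2 fold change of 0.065, and Exo1 among them had the smallest p-value of all 29 genes. Exo1 (ENSMUSG00000039748, chromosome 1, 175880581 to 175913489), a 5′ to 3′ exonuclease of mismatch repair, had 1168, 1206 and 1216 in mutants 1 to 3, against 1009, 1003, 1089 and 991 in controls 1 to 4. The mutants lay together above control 3, and the other 3 controls together below it. Its log2 fold change was 0.23 (SE 0.057), with a 95% interval from 0.095 to 0.36 and an adjusted p of 0.967 by limma. In the authors' deposited table its ratio was 1.17 with an unadjusted p of 0.00271. The other 3 genes overlapped between the groups. Ung, the glycosylase that removes uracil from DNA, had 915 ± 67.3 (SD, n = 3) in mutants and 881 ± 32.4 (SD, n = 4) in controls (log2 fold change 0.052, SE 0.069). Clspn, the adaptor of the replication checkpoint, had 1325 ± 114 (SD, n = 3) in mutants and 1258 ± 139 (SD, n = 4) in controls (0.078, SE 0.097), and Dtl, the receptor of the ubiquitin ligase that removes Cdt1 at the fork, had 1058 ± 88.2 (SD, n = 3) in mutants and 1034 ± 84.6 (SD, n = 4) in controls (0.033, SE 0.086). In both Clspn and Dtl control 3 was the highest of the 7 embryos.

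Among the 3 chromatin genes, with a median log2 fold change of 0.16, Uhrf1 (ENSMUSG00000001228, chromosome 17, 56303321 to 56323486), which brings the maintenance DNA methyltransferase to newly copied DNA, was the most abundant by count. It had 5489, 5474 and 5542 in mutants 1 to 3, against 4802, 4760.0, 5425 and 4718 in controls 1 to 4. The mutants differed from each other by a coefficient of variation of 0.653%, and control 3 lay just under them and far above the other controls. For Uhrf1 the log2 fold change was 0.16 (SE 0.062), with a 95% interval from 0.020 to 0.30 and an adjusted p of 0.967 by limma. Slbp, which binds the stem-loop of replication-dependent histone transcripts, had 1131, 1207 and 1112 in mutants 1 to 3, against 1070.3, 964, 1113 and 931 in controls 1 to 4. Control 3 lay level with mutant 3, and the log2 fold change was 0.18 (SE 0.078). Chaf1b, a subunit of the chromatin assembly factor that places histones on new DNA, stood at 0.063 (SE 0.083) with overlapping groups.

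The 3 regulators of S phase entry had a median log2 fold change of 0.11. Ccne1 (ENSMUSG00000002068, chromosome 7, 38097984 to 38107534), cyclin E1, the activator of Cdk2 at the start of S phase, had 1497, 1387 and 1587 in mutants 1 to 3, against 1266, 1306, 1291 and 1343 in controls 1 to 4. All mutants lay above all controls, and control 3 was not raised within its group; control 4 was the highest control. The log2 fold change of Ccne1 was 0.19 (SE 0.061), with a 95% interval from 0.052 to 0.33 and an adjusted p of 0.967 by limma. Its paralogue Ccne2 had 579.9, 637 and 502 in mutants 1 to 3, against 574, 565, 540.2 and 535 in controls 1 to 4. Mutant 3 was the lowest and mutant 2 the highest of the 7 embryos (log2 fold change 0.044, SE 0.089). The difference between the 2 cyclins was not tested. E2f1, a transcription factor that activates many of these genes, had 524, 518 and 553 in mutants 1 to 3, against 447, 449, 550.2 and 533 in controls 1 to 4. Controls 3 and 4 lay level with the mutants (log2 fold change 0.11, SE 0.095).

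Many replication genes are known E2F targets, and the promoters of the 29 were searched for short motifs. RefSeq windows (build GRCm38.p6, 250 bases before to 50 after a start) were matched by symbol for 24 of the 29 genes, in 27 windows; Mcm4, Gins1, Gins2, Exo1 and Ccne2 had no window in the table. The E2F consensus was searched as TTTCCCGC, TTTGGCGC, TTTCGCGC or TTTGCCGC on both strands, with overlapping matches allowed. It was found in 10 of the 24 genes (41.7%), against 30.8% of 91 other replication genes and 2.60% of all 27025 genes with windows. Those with a match were Cdc6, Cdt1, Mcm3, Mcm5, Mcm6, Mcm7, Pola1, Clspn, Dtl and Uhrf1. The CCAAT box, searched as CCAAT on both strands, was in 16 of 24 (66.7%), against 49.5% of the other replication genes and 41.1% of all. With both strands searched, the GC box GGGCGG was in 66.7%, against 85.7% of the other replication genes and 38.2% of all. The CHR element TTTGAA of mitotic genes was in 12.5%, against 17.6% and 20.2% of these sets, and the TATA box TATAAA in 8.33%, against 6.59% and 15.7%. The median log2 fold change was 0.15 in the 10 genes with an E2F match and 0.10 in the 14 with windows and no match, a description with no test. A match is a run of letters and says nothing of whether a factor is bound.

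Shown here, 5′ to 3′ on the strand of the gene, are stretches before the start that hold an E2F match and touch no annotated exon, with the matched bases in capitals, to let the position and form of the matches be compared. The stretch of Mcm6 holds 3 matches, at 110, 106 and 47 bases before the start, and the first 2 overlap on opposite strands, as do the 2 of Mcm5 at 153 and 149 bases. The match of Dtl ends at the base before the start, those of Pola1 and Uhrf1 begin 138 and 185 bases before it, and for Uhrf1 the start is the one inside the gene.
Mcm5 (chr8:75109316-75109407, forward strand): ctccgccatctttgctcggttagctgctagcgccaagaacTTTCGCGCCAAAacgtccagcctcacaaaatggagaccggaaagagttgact
Mcm6 (chr1:128359706-128359855, reverse strand): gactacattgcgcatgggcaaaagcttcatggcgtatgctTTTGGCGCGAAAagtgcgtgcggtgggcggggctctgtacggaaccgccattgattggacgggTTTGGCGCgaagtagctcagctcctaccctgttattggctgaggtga
Pola1 (chrX:93632246-93632333, reverse strand): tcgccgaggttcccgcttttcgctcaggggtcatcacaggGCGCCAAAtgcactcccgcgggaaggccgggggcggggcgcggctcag
Dtl (chr1:191575545-191575592, reverse strand): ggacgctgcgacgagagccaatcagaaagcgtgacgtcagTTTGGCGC
Uhrf1 (chr17:56304088-56304175, forward strand): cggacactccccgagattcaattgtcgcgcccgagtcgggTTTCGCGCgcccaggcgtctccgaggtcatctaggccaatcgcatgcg

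Controls 3 and 4 kept much the same place in most of the genes, and the order of the mutants varied from gene to gene. Relative to the mean of the 4 controls, the median log2 deviation over the 29 genes was 0.12, 0.14 and 0.16 in mutants 1 to 3, against -0.019, -0.028, 0.13 and -0.061 in controls 1 to 4. Control 3 was the highest control in 21 of 29 genes and the highest of all 7 embryos in 7, and control 4, the library with the fewest reads, was the lowest of all 7 in 20. Mutant 3 was the highest of all 7 in 12 genes, mutant 2 in 7 and mutant 1 in 2, and mutant 3 was also the lowest mutant in 9 genes. Within a genotype the genes were steady: their median SD on the log2 scale was 0.070 in mutants and 0.098 in controls, against 0.078 in mutants and 0.099 in controls over all genes with a mean of at least 1000. Without control 4 the median log2 fold change of the 29 was 0.12, and 26 of 29 were above 0, against 53.0% of all genes.

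Leaving out control 3, the highest control in most of the genes, could only raise the count of genes without overlap. It also left high neural tube marker levels in mutants 2 and 3 alone, so the values without it are a description and no support for the difference. Every mutant then lay above every control in 18 of 29 genes, against 10.6% of all genes, and 16 of 29 had an unadjusted p under 0.05, against 6.87% of all genes. The median log2 fold change of the 29 was 0.18, and 0 of the 29 were called by limma, against 0.0654% of all genes (10 genes), the smallest adjusted p being 0.155 for Mcm5. For 9 genes, among them Mcm2, Mcm3, Mcm4, Mcm6 and Mcm7, control 3 was the only control that reached the range of the mutants.

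**Figure D3:**
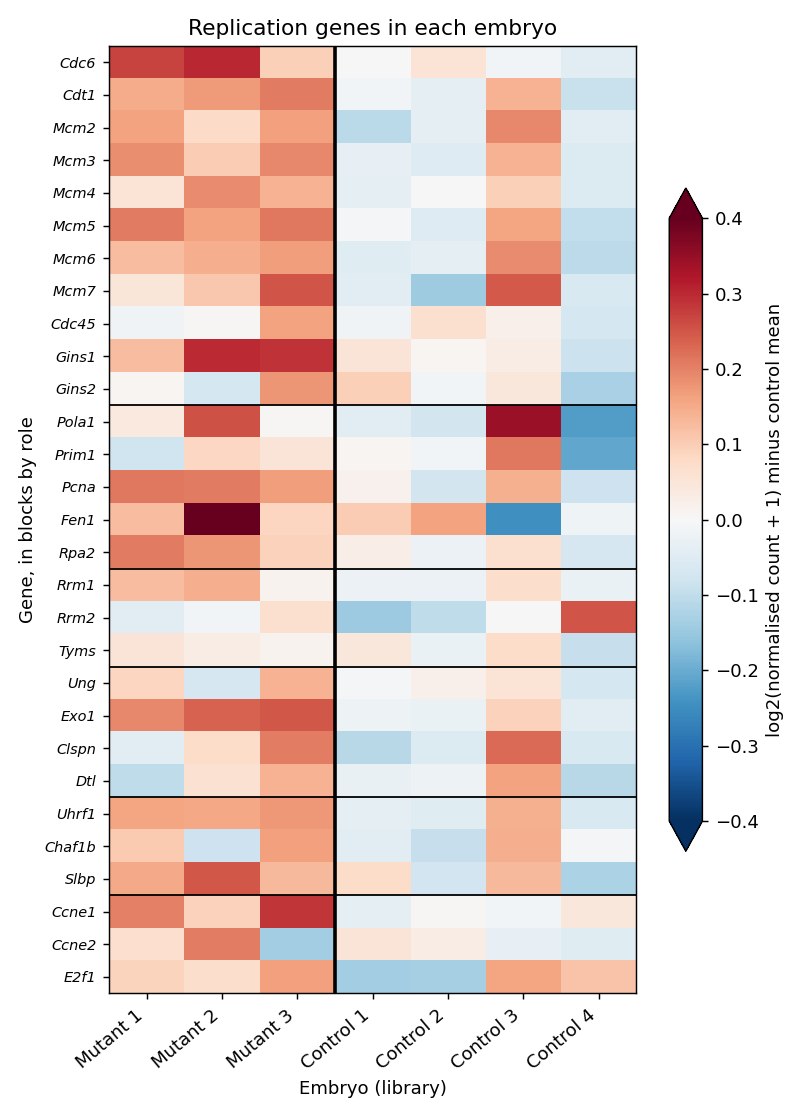
Difference of each gene's log2(normalised count + 1) from its mean in the 4 controls (colour, red above and blue below) for the 29 genes (rows, in blocks by role) in 3 mutant and 4 control embryos (columns). The mutant columns and control 3 are mostly red, control 4 is mostly blue except for Rrm2, E2f1 and Ccne1, and Fen1 in control 3 and mutant 2 departs from the other genes.

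Markers of other tissues followed part of the pattern of control 3 and the mutants. The mean log2 level of 12 neural tube markers was 3.91, 6.40 and 7.05 in mutants 1 to 3, against 4.34, 3.14, 7.07 and 3.46 in controls 1 to 4, and their summed normalised counts ran from 2880.1 to 5453 in mutants and 2009 to 6111 in controls. The lowest sums were mostly Irx3, with 2384 in mutant 1 and 1760 in control 2. Irx3 was highest in mutant 1 and did not follow the other markers. Of these 12 genes 10 were tested, all 10 had a positive fold change and 0 passed; Olig2 and Dbx1, which define neural progenitor domains, were at 0 in mutant 1 and in controls 1, 2 and 4. The mean log2 level of 12 heart muscle markers was 12.4, 11.1 and 11.5 in mutants 1 to 3, against 12.2, 12.3, 10.9 and 12.6 in controls 1 to 4, that is lowest in the embryos with the highest neural tube levels. Of these, 12 of the 12 had a negative fold change, none passing. Mutant 1 is the exception to a simple pairing of the measures: its replication genes averaged 10.46 on the log2 scale, level with control 3 at 10.46, while its neural tube level of 3.91 lay below that of control 1 at 4.34 and its heart muscle level was the highest of the mutants. In bulk RNA, fewer cells of a type and less RNA per cell cannot be told apart.

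**Figure D4:**
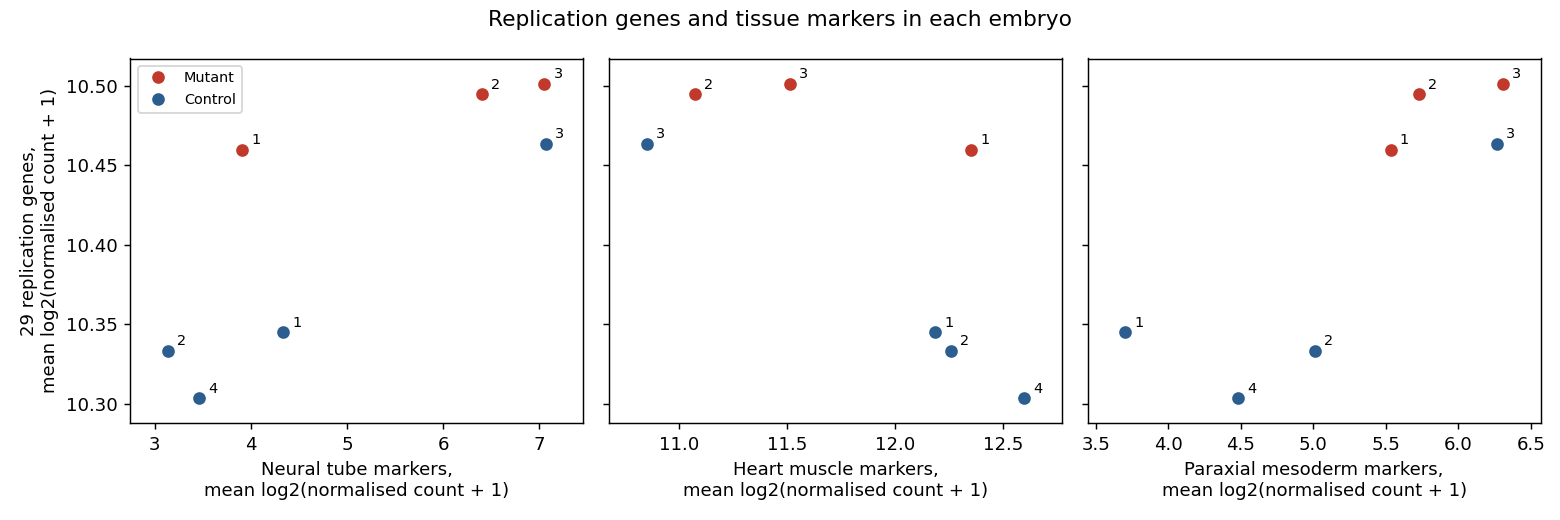
Mean log2(normalised count + 1) of the 29 replication genes (y axis) against that of neural tube, heart muscle and paraxial mesoderm markers (x axes) in each embryo, mutants in red and controls in blue with embryo numbers. Mutants 2 and 3 and control 3 share high neural tube and low heart muscle levels, mutant 1 has high replication gene levels with a low neural tube level, and controls 1, 2 and 4 are lowest in replication genes and in paraxial mesoderm markers.

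Fitted together with the neural tube level by limma, the median log2 fold change of the 29 genes was 0.084, with 24 of 29 above 0. Over all genes the median was 0.015, with 54.0% above 0. Of the 29, 6 had an unadjusted p under 0.05, against 853 of the 15599 genes tested, 464 of them higher in mutants. The main fit placed 598 of all genes there, 339 of them higher, so the 6 and the 10 of the main fit stand against unlike shares. The mean log2 level of 9 paraxial mesoderm markers was 5.53, 5.73 and 6.30 in mutants 1 to 3, against 3.71, 5.01, 6.27 and 4.48 in controls 1 to 4, so the 3 mutants and control 3 were the 4 highest embryos in these markers as in the replication genes. Their summed normalised counts were 1418 to 3237 in mutants and 515 to 2760.2 in controls, 6 of 7 tested had a positive fold change, and of the defining genes Meox2 was at 0 in control 1 and Myf5 in controls 1 and 4. The summed normalised counts of 8 endothelial genes were 6002 to 6591 in mutants and 5368 to 8836 in controls, with 8 of 8 fold changes negative. For 11 yolk sac and visceral endoderm genes they were 1285 to 17579 in mutants and 4867 to 16999 in controls, with 11 of 11 negative, and for 8 primitive erythroid genes 66.9 to 329 in mutants and 48.1 to 532 in controls, where 3 of 4 tested were negative; the embryonic globin genes Hba-x and Hbb-bh1 were at 0 in mutant 3 and control 3. No gene of these lists passed the test. The part of these other tissues in the replication gene levels was not tested beyond the fit with the neural tube level.

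The median difference was above 0 within each sex. Among females (2 mutants, 2 controls, control 3 among them) 24 of 29 genes were higher in mutants, with a median difference of 0.086 on the log2 scale, against 54.7% higher and a median of 0.018 over all genes tested. Among males (1 mutant, 2 controls) 26 of 29 were higher, with a median of 0.16, against 50.5% and 0.0033 over all genes. With sex as a covariate the median log2 fold change was 0.12, with 28 of 29 above 0, against 52.2% of all genes. Sex and the substage in the header cannot be told apart.

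Levels per length showed which genes carried most transcript. RPKM, reads per kilobase scaled to the library total, were computed from the recovered reads and the length of the principal transcript in GENCODE M21. In RPKM the most abundant genes were Rrm2, at 164 ± 8.33 (SD, n = 3) in mutants and 165 ± 19.8 (SD, n = 4) in controls, and Pcna, at 182 ± 1.98 in mutants and 160.3 ± 15.0 in controls. The 6 subunits of the MCM ring, which assemble in equal numbers, lay between 102 (Mcm4) and 150.1 (Mcm7) in mutants and between 94.0 (Mcm4) and 138 (Mcm7) in controls, a range of 1.47-fold in mutants and 1.46-fold in controls. By contrast the loading factors Cdt1 and Cdc6 had 54.9 and 44.5 RPKM in mutants and 48.9 and 38.3 RPKM in controls. The lowest were Pola1, with 12.5 in mutants and 11.9 in controls, Exo1, with 13.3 in mutants and 11.4 in controls, and Fen1, with 3.82 in mutants and 3.23 in controls. The place of Fen1 is uncertain, as its count is, because of its overlap with opposite-strand genes. In controls Mcm5, Mcm2, Mcm6, Mcm3 and Uhrf1 overlapped within their SD, so their order is not resolved, and annotated transcript ends that are not used would lower a gene's value.

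**Figure D5:**
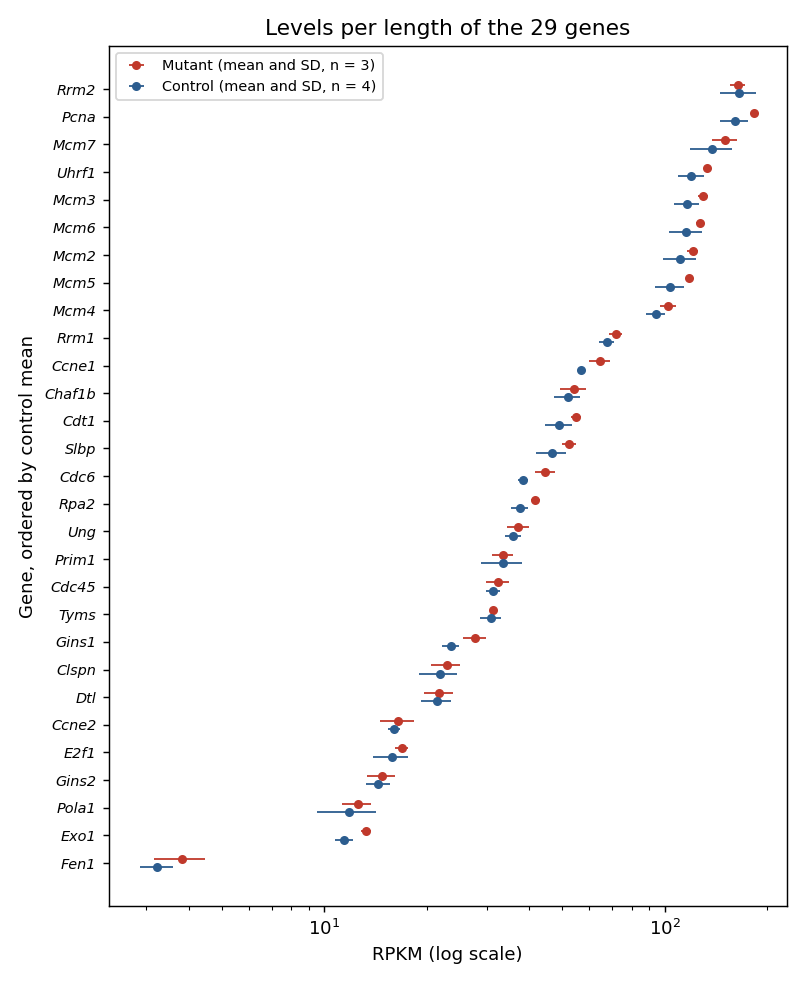
RPKM (x axis, log scale) of the 29 genes (rows, ordered by control mean), as mean and SD over 3 mutant embryos in red and 4 control embryos in blue. Rrm2, Pcna, Uhrf1 and the 6 MCM genes form the upper end, and Fen1, whose count is uncertain, lies apart at the lower end.

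Other genes of the replication machinery, taken from a list of 112 that leaves out the 29, had mostly positive fold changes and none passed the test. Of 112 tested, 94 were above 0 and 18 below, with a median log2 fold change of 0.092. Above 0 were 51.7% of all genes tested and 66.4% of those with a mean normalised count of at least 1000. In 8 of the 112 every mutant lay above every control, against 3.70% of all genes and 7.79% of those with such a mean. In 2 every mutant lay below every control, against 2.08% of all genes. By role, 18 of 21 licensing and helicase genes were above 0 (median 0.043), 20 of 21 polymerase and fork genes were above 0 (median 0.085), and 14 of 16 nucleotide supply genes were above 0 (median 0.11). Further, 13 of 18 repair and checkpoint genes were above 0 (median 0.095), 11 of 12 chromatin genes were above 0 (median 0.079), and 18 of 24 G1 to S regulators were above 0 (median 0.096). In each role 0 genes passed.

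Among these, the initiation factor Mcm10 stood at 0.21 (SE 0.084), the GINS subunit Gins3 at 0.23 (SE 0.11), the MCM binding protein Mcmbp at 0.12 (SE 0.064) and Topbp1, which also acts at initiation, at 0.14 (SE 0.089). Pold3, a subunit of DNA polymerase delta, had 1480.1, 1576 and 1367 in mutants 1 to 3, against 1127, 1101, 1347 and 1263 in controls 1 to 4, without overlap. The log2 fold change of Pold3 was 0.29 (SE 0.088), with a 95% interval from 0.086 to 0.49 and an adjusted p of 0.967 by limma. Rpa1 (0.13, SE 0.055), the clamp loader subunit Rfc3 (0.14, SE 0.063) and Pola2 (0.13, SE 0.067), partners of Rpa2, Pcna and Pola1, were close to the median of the 29. They were named for being among the smallest p-values of their list, whose median was 0.085, so their closeness to that value carries no weight. Of nucleotide synthesis the purine enzymes Ppat and Paics stood at 0.12 (SE 0.057) and 0.14 (SE 0.071), Dctpp1 at 0.15 (SE 0.073) and Shmt1 at 0.10 (SE 0.055). Of repair genes Brca1 had 1275, 1351 and 1278 in mutants 1 to 3, against 1094, 1167, 1189 and 1079.7 in controls 1 to 4, without overlap (log2 fold change 0.20, SE 0.059), while Msh6 stood at 0.19 (SE 0.099) and Fanci at 0.21 (SE 0.12). The histone chaperones Asf1b, Nasp, Supt16 and Ssrp1 stood at 0.24 (SE 0.10), 0.18 (SE 0.077), 0.51 (SE 0.25) and 0.10 (SE 0.049). In Rfc3, Shmt1, Asf1b and Ssrp1 too every mutant lay above every control.

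Of the other G1 to S regulators, Ccnd2 and Cdkn1b had the smallest p-values. Ccnd2, cyclin D2, which drives cells through G1, had 6272, 6209 and 7351 in mutants 1 to 3, against 4060.1, 4765, 5575 and 4932 in controls 1 to 4, with all mutants above all controls. That gave a log2 fold change of 0.46 (SE 0.11), with a 95% interval from 0.20 to 0.71 and an adjusted p of 0.967 by limma. Cdkn1b, the inhibitor p27 of cyclin-dependent kinases, had 482, 483 and 491 in mutants 1 to 3, against 547, 583, 537 and 618 in controls 1 to 4. All mutants lay below all controls. For Cdkn1b the log2 fold change was -0.23 (SE 0.071), with a 95% interval from -0.40 to -0.068 and an adjusted p of 0.967 by limma. Mycn stood at 0.27 (SE 0.098) and the phosphatase gene Cdc25a at 0.14 (SE 0.054), and in Cdc25a the groups did not overlap. Of 22 genes of G2 and M phase 19 were above 0, with a median of 0.080 and 0 called, against 51.7% above 0 of all genes. Those with the smallest p were the mitotic kinase gene Aurkb at 0.15 (SE 0.071), the checkpoint kinase gene Bub1b at 0.11 (SE 0.056), cyclin A2 (Ccna2) at 0.090 (SE 0.051) and Birc5 at 0.11 (SE 0.060). In 3 of the 22, Bub1b and Ccna2 among them, every mutant lay above every control, and in 0 below, against 3.70% and 2.08% of all genes. Among genes with a mean normalised count of at least 1000 the upward share was 7.79%, and 66.4% of them had a fold change above 0. Whether the fold changes of the 29 replication genes and of these mitotic genes differ was not tested.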

How the data were processed

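Libraries from 20 ng of total RNA were made with a kit that selects polyadenylated RNA and sequenced as paired reads of 130 bases to a mean of 58 M reads, per the labels' protocols. The submitters' processing notes list GRCm38 as the build and HISAT2, Subread, featureCounts, limma, edgeR and DESeq2 as tools, but give no version and no role for them. The authors deposited normalised signal, in which each library's read counts are scaled by 1 factor: 100.0% of values above 0 were whole multiples of the smallest value of their library within 0.1, and dividing by it recovered the reads. The authors' table also gives, per the file headers, group means, the ratio of mutant to control and a p-value with its adjustment.

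The 15599 genes that reached a normalised count of 10 in 3 or more libraries were tested with limma 3.58.1 (trended) on log2(normalised count + 1) in R 4.3.3, which understates changes of low genes, with Benjamini-Hochberg adjustment over all of them. EdgeR 4.0.16 and DESeq2 1.42.0 ran on the recovered reads, and the fits were tested on simulated data. The changes planted there were far larger than those of the 29 genes, so that test says nothing of calling differences of this size. Groups follow the genotype labels, each library being taken as 1 embryo from its numbered title, sex and genotype, and the labels do not state whether littermates are among them. All 29 genes are named; of the lists of other replication and G2 and M phase genes, the 4 with the smallest p in each are, except 1 that is not reported here. The 29 genes, the lists and the motifs were chosen with earlier results of these data known. Coordinates and overlaps are from GENCODE M21 (GRCm38). Alternatives were the tool, scaling, filter, pseudocount, trend, covariates, females alone and each embryo left out.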

Additional observations from a re-analysis of the deposited data

Results flagged for a closer look

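Control 3 stood apart from the other 3 controls in 8 of the genes named. The gap to the next control took a share of 0.897 in Mcm3 (normalised count 4455), 0.956 in Rrm1 (normalised count 3255), 0.845 in Clspn (normalised count 1464) and 0.881 in Uhrf1 (normalised count 5425) of the whole range of the controls. Among the other replication genes it was 0.940 in Pola2 (1328), 0.832 in Paics (5239.6), 0.860 in Msh6 (2221) and 0.863 in Fanci (317). These shares are past the 95% critical value of Dixon's test for 4 samples, and in each of these genes control 3 was the highest control. Of 64 sets of controls examined, chance alone would put about 1 in 20 past the limit, and the genes are not independent of each other. A test of whether the genotype effect differs between males and females found 0 of the 29 genes at an adjusted or unadjusted p under 0.05.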

How the results depend on the processing

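In all 19 alternatives 0 of the 29 genes were called, with a smallest adjusted p of 0.155 (limma without control 3), between 24 and 29 were above 0, and the median log2 fold change lay between 0.084 and 0.18. The count of genes whose groups do not overlap was 9 in the main fit, where every mutant lay above every control in 3.70% of all genes. It was 18 without control 3, against 10.6% of all genes, and 9 to 12 without any other embryo, against 4.91% to 7.94%. Leaving out an embryo cannot lower this count, so its size there is no sign of stability. With edgeR, DESeq2, library totals or TMM scaling it was 6, against 2.73% to 2.96%. Covariates and the test do not enter that count. By limma, 10 of the 29 had an unadjusted p under 0.05 in the main fit, among 598 of all genes tested. Without the intensity trend 5 had, among 602 of all genes, and with library totals as scaling 6, among 521. With 1 embryo other than control 3 left out the number was 4 to 7, among 370 to 568 of all genes. In females alone it was 0, among 138. Genes called over the whole table numbered 2; they were 1 with edgeR, 8 with DESeq2, 1 with sex or the range of embryo numbers in the titles as a covariate, 0 with limma in females alone (138 at an unadjusted p under 0.05) and between 1 and 10 with 1 embryo left out, 10 being without control 3. Signs of single genes, none of them called, turned in 28 of 551 values, in 10 genes, and the cause was not tested. The log2 fold change that turned is given here by setting. With 1 embryo left out it ran from -0.0039 to 0.082 for Cdc45, from -0.031 to 0.091 for Gins2, from -0.052 to 0.087 for Prim1, from -0.046 to 0.087 for Rrm2, from -0.019 to 0.10 for Dtl and from -0.036 to 0.14 for Ccne2. It was -0.017 for Gins2, -0.019 for Pola1, -0.042 for Prim1, -0.038 for Tyms and -0.0096 for Chaf1b in females alone. It was -0.013 for Pola1, -0.071 for Prim1, -0.0018 for Rrm2, -0.018 for Clspn and -0.049 for Dtl with the neural tube level in the fit. It was -0.0021 for Prim1 and -0.016 for Rrm2 with edgeR. It was -0.000077 for Prim1 and -0.013 for Rrm2 with DESeq2. It was -0.014 for Prim1 with sex as a covariate. It was -0.0033 for Rrm2 with library totals as scaling. It was -0.0089 for Rrm2 with TMM scaling. No paired analysis was possible because the labels give no replicate numbers that groups share. Fen1 had the fewest reads, 53 to 164 a library, against up to 7192 for Uhrf1. Its count is uncertain because of its overlap with opposite-strand genes, and the cause of the low count was not tested.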

Other observations

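Supt16, a subunit of the histone chaperone FACT, varied within the controls more than its partner. It had normalised counts of 4795, 5180.0 and 5432 in mutants 1 to 3, against 2487, 2781, 5411 and 4445 in controls 1 to 4, so controls 1 and 2 lay far below controls 3 and 4 and every mutant. Ssrp1, the other subunit of FACT, had 6327, 6069.8 and 6231 in mutants 1 to 3, against 5594, 5689, 5998 and 5904 in controls 1 to 4. The cause was not tested.

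The balance of paired genes was also read per embryo. Reads per kilobase of Rrm1 over those of Rrm2 gave a ratio of 0.461, 0.458 and 0.397 in mutants 1 to 3, against 0.448, 0.435, 0.432 and 0.339 in controls 1 to 4, so control 4 was lowest. For Ccne1 over Ccne2 the ratio was 3.88, 3.27 and 4.75 in mutants 1 to 3, against 3.32, 3.48, 3.59 and 3.77 in controls 1 to 4, and the groups overlapped.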
